A study of Mus musculus with 6 samples.

Results

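Nuclear receptors are transcription factors that read small lipid-soluble signals, among them fatty acids, sterols, steroid hormones and vitamins A and D, and some of them, the orphan receptors, have no settled ligand. The set described here holds the metabolic and orphan receptors of mouse gastrocnemius, a mixed hindlimb muscle, without the thyroid hormone receptors, the retinoid X receptors and the clock receptors Nr1d1, Nr1d2 and Rora. A gene belonged to it when its symbol was on a list of 37 and its mean count over the 6 libraries was at least 5. That left 24 genes of the 17034 with values in the table. Of the other listed symbols, 8 had a lower mean (Esr2, Pgr, Rorb, Nr1h4, Nr1i3, Nr5a1, Nr0b1 and Nr0b2), and 5 had no value (Nr1i2, Nr2e1, Nr2e3, Hnf4a and Hnf4g). Just inside the threshold lay Vdr, with a mean count of 6.5, and just outside it Rorb and Nr1i3, with 3.83 and 3.62.

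Polyadenylated RNA came from male mice of 8 weeks, 3 per genotype, with 1 library each and batch 1 given to every library. Mice labelled TRa_mKO carried Thra fl/fl, floxed alleles of the thyroid hormone receptor alpha gene, and a Myf5-Cre transgene, which expresses Cre recombinase from embryonic myogenic cells on, so that cells of lineages without Cre keep Thra. Their WT littermates carried Thra fl/fl without Cre, so that an effect of Cre itself and one of the lost receptor cannot be told apart. Library totals ran from 12390527 to 14488500 counts. Fractional counts of Thra show that it shares reads with other features. Thra, counted over the whole gene, stood at 78.8, 92.8 and 96.9 CPM (counts scaled to library size) in the WT mice. In the TRa_mKO mice it stood at 128.7, 117.7 and 100.8 CPM (log2 fold change 0.37, adjusted p = 0.117). It was thus not lower, a whole-gene count cannot test whether the floxed part is gone, and every direction below rests on the labels; TRa_mKO here means a library labelled so. Hr, a known thyroid hormone target, fell from 90.0, 82.6 and 77.4 CPM in WT to 7.69, 6.70 and 8.99 CPM in TRa_mKO (adjusted p = 7.89e-07), so the genotypes were far apart in that gene. Skeletal muscle markers (8 genes, none at 0) summed to between 86900 and 111700 CPM in the WT mice, and between 115200 and 127500 CPM in the TRa_mKO mice.

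Many receptors of this class, though not all, bind DNA as dimers or monomers at variants of the hexamer AGGTCA, a good part of them together with a retinoid X receptor. In muscle the PPARs and the estrogen-related receptors are known for driving fatty acid oxidation and mitochondrial genes, the LXRs for sterol and lipid handling, and the glucocorticoid receptor for protein breakdown. Several of these receptors share partners, coregulators and response elements with the thyroid hormone receptors.

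In the libraries labelled TRa_mKO, Ppara and Esrrb rose, by 2.04-fold and 1.73-fold, and Nr1h3 and Nr6a1 fell, with WT 1.78-fold and 1.60-fold higher. These 4 were the receptor genes that passed among 23 tested (17.4%, 2 higher and 2 lower, with a Benjamini-Hochberg adjusted p below 0.05 in edgeR's quasi-likelihood test), against 4.17% of all 13118 genes tested (331 or 2.52% higher and 216 or 1.65% lower; the numbers are 213 and 255 with library sizes alone). Vdr did not reach the count needed for the test. Of the tested receptors, 8 had an unadjusted p below 0.05 (34.8%, against 17.9% of all genes), and in 8 the libraries of the genotypes did not overlap (34.8%, 3 higher and 5 lower, against 23.2% of all genes, 13.2% higher and 10.1% lower). The median log2 fold change of TRa_mKO over WT was -0.12 over the tested receptors and 0 over all genes, and the median size of a change was 0.15 and 0.14. The count of receptors that passed was 2 without WT replicate 3 or without TRa_mKO replicate 3, where Ppara and Nr1h3 were called, and 5 without WT replicate 1, where Esrrg joined. Over all genes the count was 361 without WT replicate 2, 310 without WT replicate 3 and 209 without TRa_mKO replicate 2, and 139 genes were lower without TRa_mKO replicate 3.

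**Figure D1:**
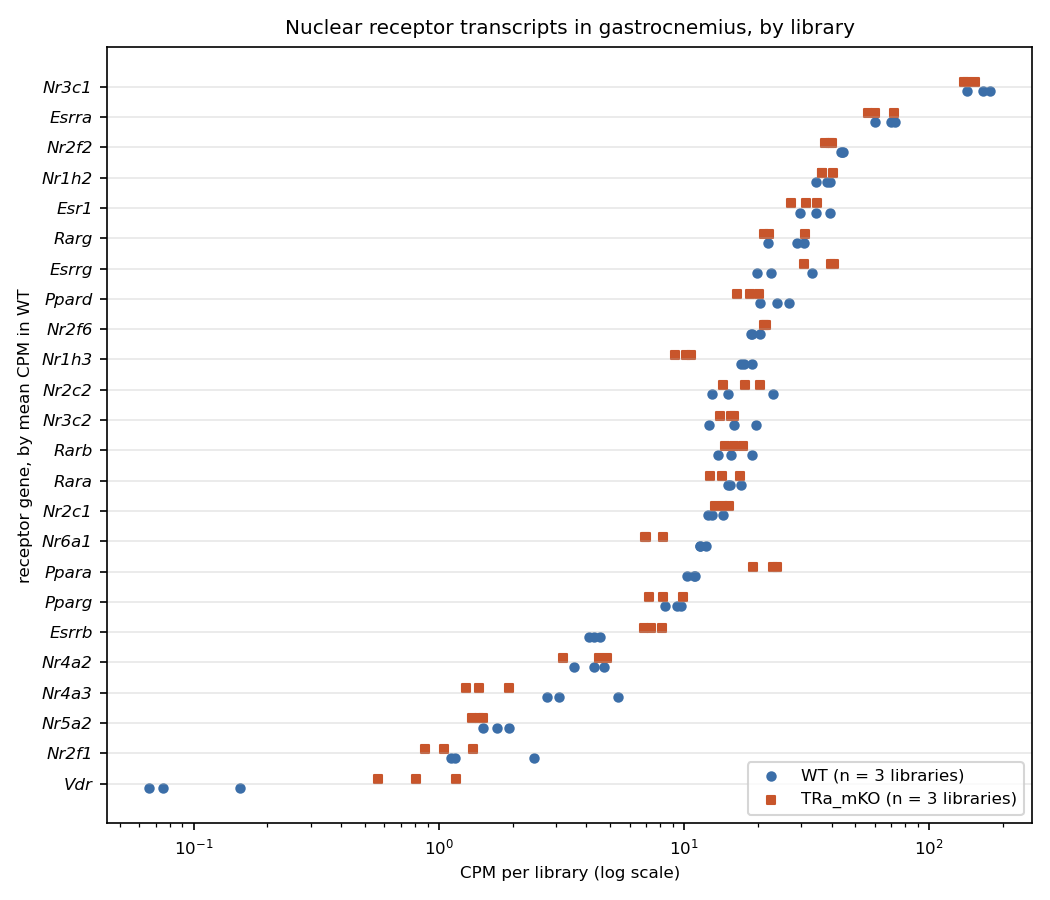
CPM of 24 receptor genes in each library, on a log axis, with circles for the 3 WT libraries and squares for the 3 TRa_mKO libraries, ordered by the WT mean. Ppara, Esrrb, Nr2f6 and Vdr lay higher in every TRa_mKO library than in any WT library, and Nr1h3, Nr6a1, Nr4a3, Ppard and Nr2f2 lay lower. Such separation was seen in 34.8% of the tested receptors and 23.2% of all genes tested. Vdr was not tested and is in the set through its TRa_mKO counts.

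Promoter sequence is shown for the 4 receptor genes that passed, as the places where binding of other receptors could be looked for. The stretches are the 250 bases before a RefSeq transcript start in build GRCm38.p6, read 5′ to 3′ on the gene's strand, for the start farthest upstream of each gene and, for Nr6a1, also for a later start. Capitals mark AGGTCA on either strand (TGACCT on the strand shown) and the GC box GGGCGG. Later starts of Esrrb and Nr1h3 are not shown, and their stretches held neither motif. Of the later starts, that of Nr6a1 is shown and is alone in holding a motif.
Ppara, chr15:85735526-85735775, plus strand: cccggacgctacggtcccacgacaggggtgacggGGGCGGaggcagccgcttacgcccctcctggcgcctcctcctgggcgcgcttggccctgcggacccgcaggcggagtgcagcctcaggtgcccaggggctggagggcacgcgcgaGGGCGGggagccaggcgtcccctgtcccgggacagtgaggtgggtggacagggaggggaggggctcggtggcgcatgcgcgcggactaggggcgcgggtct
Esrrb, chr12:86360867-86361116, plus strand: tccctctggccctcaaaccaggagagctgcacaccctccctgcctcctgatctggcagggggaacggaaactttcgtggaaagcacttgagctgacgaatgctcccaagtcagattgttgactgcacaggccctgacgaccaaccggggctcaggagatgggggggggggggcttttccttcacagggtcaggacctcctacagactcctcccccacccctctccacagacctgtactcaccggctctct
Nr1h3, chr2:91195117-91195366, minus strand: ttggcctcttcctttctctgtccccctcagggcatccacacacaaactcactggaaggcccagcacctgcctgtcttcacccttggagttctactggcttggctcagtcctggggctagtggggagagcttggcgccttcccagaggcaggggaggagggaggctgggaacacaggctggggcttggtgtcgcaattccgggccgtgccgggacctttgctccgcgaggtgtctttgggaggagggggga
Nr6a1, chr2:38926462-38926711, minus strand: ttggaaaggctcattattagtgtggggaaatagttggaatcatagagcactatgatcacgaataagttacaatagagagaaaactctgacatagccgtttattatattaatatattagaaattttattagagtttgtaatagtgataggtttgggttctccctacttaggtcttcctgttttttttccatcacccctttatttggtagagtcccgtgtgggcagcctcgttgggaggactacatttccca
Nr6a1, chr2:38784516-38784765, minus strand: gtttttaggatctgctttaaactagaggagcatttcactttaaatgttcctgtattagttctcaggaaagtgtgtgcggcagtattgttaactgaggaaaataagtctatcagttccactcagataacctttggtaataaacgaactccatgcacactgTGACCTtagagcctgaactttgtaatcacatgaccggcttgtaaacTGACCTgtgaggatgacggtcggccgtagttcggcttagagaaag
The Ppara stretch held 2 GC boxes, 27 CG dinucleotides and 76.4% G and C, and no AGGTCA. That of Esrrb held neither motif, with 6 CG and 60.8% G and C, and Nr1h3 neither, with 7 CG and 63.2%. The upstream Nr6a1 stretch was poor in G and C (37.6%, 4 CG), and the later one held 2 copies of TGACCT, which began 91 and 45 bases before the start. RefSeq promoters were found for 23 of the 24 genes, with 38 starts. AGGTCA stood on either strand in 5 of these 38 stretches (13.2%, in Nr5a2, Nr6a1, Pparg and Rarg), against 14.0% of all 32851 promoters in the table. GGGCGG on either strand stood in 18 (47.4%), against 32.7% of all. Longer elements that contain AGGTCA, namely TCAAGGTCA and the direct repeats DR1 and DR4 (AGGTCA repeated after 1 or 4 bases), were in 0 of the 38 and in 0.387%, 0.0335% and 0.0152% of all promoters. The median G and C content was 61.2% in the receptor promoters and 52.4% over all.

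Among the PPARs, sensors of fatty acids, the genotypes differed in which receptor was the most abundant. Ppara (gene ID 19013), the receptor that turns on fatty acid oxidation during fasting, stood at 11.1, 11 and 10.3 CPM in the WT mice, against 19.2, 24.0 and 23.0 CPM in the TRa_mKO mice. All TRa_mKO libraries lay above all WT libraries, and the WT values were close together (10.8 ± 0.429 against 22.1 ± 2.54 CPM, n = 3 mice per genotype, SD). Its log2 fold change was 1.03 (SE 0.12, 95% confidence interval 0.77 to 1.29, adjusted p = 0.0013). Ppard (gene ID 19015), the PPAR usually most abundant in muscle and tied to oxidative fibres, stood at 20.4, 23.9 and 26.9 CPM in the WT mice, against 18.7, 20.3 and 16.4 CPM in the TRa_mKO mice. Its groups did not overlap, though WT replicate 1 and TRa_mKO replicate 2 were nearly equal, and it did not pass (log2 fold change -0.37, interval -0.65 to -0.09, adjusted p = 0.151). Pparg, the adipocyte receptor, measured 9.16 ± 0.697 CPM in the WT mice, against 8.43 ± 1.37 CPM in the TRa_mKO mice (adjusted p = 0.755).

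Per length of the longest GENCODE transcript, Ppara made up 24.4%, 22.9% and 21.3% of the summed PPAR CPM per kilobase (RPKM) in WT, and 40.1%, 43.0% and 42.7% in TRa_mKO. Ppard held 45.9% ± 4.88 in WT and 32.3% ± 4.06 in TRa_mKO, and Pparg 31.2% ± 3.31 and 25.8% ± 3.21. The order was thus Ppard over Pparg over Ppara in each WT library, and Ppara over Ppard in each TRa_mKO library. The summed level itself was 13.8 ± 0.481 RPKM in WT and 15.4 ± 1.22 RPKM in TRa_mKO, with ranges that overlapped. Such shares depend on the transcript lengths taken (3413 bases for Ppara, 3726 for Ppard and 2125 for Pparg). The ratio of Ppara to Ppard within a library does not depend on length when genotypes are compared. On the log2 scale it was -0.88, -1.12 and -1.38 in WT and 0.04, 0.24 and 0.49 in TRa_mKO, a difference of 1.39 with no overlap. The ratio of Ppara to Pparg was 1.16 higher in TRa_mKO, again with no overlap. With 3 libraries against 3, the two-sided exact permutation test cannot go below p = 0.1, which each of these ratios reached (adjusted p = 0.2 over the 10 receptor pairs examined).

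**Figure D2:**
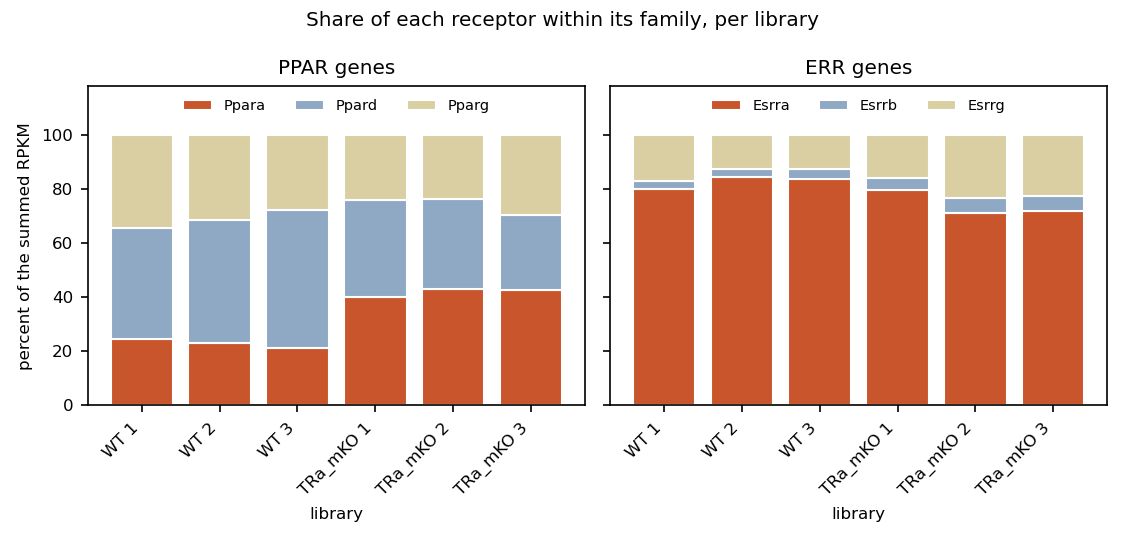
Stacked bars give the percent of the summed RPKM of the PPAR genes (left) and the estrogen-related receptor genes (right) held by each member in each of the 6 libraries. Ppara holds 21.3% to 24.4% in WT and 40.1% to 43.0% in TRa_mKO, and Esrra is the tallest segment of its family in every library.

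The estrogen-related receptors are orphans that work with PGC-1 coactivators on genes of mitochondrial metabolism. Esrrb (gene ID 26380), the least abundant of them in muscle, stood at 4.57, 4.11 and 4.29 CPM in the WT mice, against 6.88, 7.34 and 8.17 CPM in the TRa_mKO mice. Every TRa_mKO library exceeded every WT library, and the log2 fold change was 0.79 (SE 0.15, interval 0.45 to 1.13, adjusted p = 0.0189). The call ended without WT replicate 2 or 3 or TRa_mKO replicate 2 or 3 (adjusted p = 0.0568, 0.0657, 0.0759 and 0.0629) and with WT replicate 1 and TRa_mKO replicate 3, the libraries richest in haemoglobin, both left out (0.12). Esrrg (gene ID 26381), tied to slow and oxidative fibres, stood at 33.3, 22.7 and 19.8 CPM in the WT mice, against 30.9, 39.7 and 41.0 CPM in the TRa_mKO mice. WT replicate 1 lay above TRa_mKO replicate 1, so the groups overlapped, and the gene did not pass (log2 fold change 0.56, interval 0.11 to 1.01, adjusted p = 0.18). Without WT replicate 1 it passed (log2 fold change 0.80, adjusted p = 0.021), as it did with the haemoglobin-rich pair left out (0.73, adjusted p = 0.0495). Esrra (gene ID 26379), the major family member, stood at 67.6 ± 6.57 CPM in the WT mice, against 62.7 ± 8.08 CPM in the TRa_mKO mice, with an interval of -0.36 to 0.14 around its log2 fold change of -0.11.

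Per length, Esrra held 82.8% ± 2.31 of the summed RPKM of the family in WT and 74.2% ± 4.72 in TRa_mKO, Esrrg 14.1% ± 2.44 and 20.6% ± 4.1, and Esrrb 3.08% ± 0.325 and 5.15% ± 0.638. The log2 ratio of Esrrb to Esrra was 0.90 higher in TRa_mKO with no overlap (exact permutation p = 0.1, the smallest possible, adjusted p = 0.2). That of Esrrg to Esrra was 0.70 higher with overlap (exact permutation p = 0.2, adjusted p = 0.333). The summed level of the family was 32.9 ± 3.84 RPKM in WT and 33.8 ± 2.26 RPKM in TRa_mKO.

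Slow-fibre transcripts moved with these genes. The 10 genes of that list (Myh7, Tnni1, Tnnt1, Tnnc1, Myl2, Myl3, Atp2a2, Casq2, Myoz2 and Tpm3) summed to 2990, 1360 and 1388 CPM in the WT mice, and to 5282, 5566 and 7654 CPM in the TRa_mKO mice, and 5 of them passed, all higher, against 2.52% of all genes called higher. That count was 10, 2 and 3 with WT replicate 1, 2 or 3 left out, and 2, 1 and 2 with TRa_mKO replicate 1, 2 or 3 left out. WT replicate 1, which stood highest among WT in Esrrg and Esrrb, was also highest in this sum. In bulk RNA a larger share of slow fibres and more RNA per fibre cannot be told apart, and the part of the slow-fibre change in the receptor values was not tested.

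**Figure D3:**
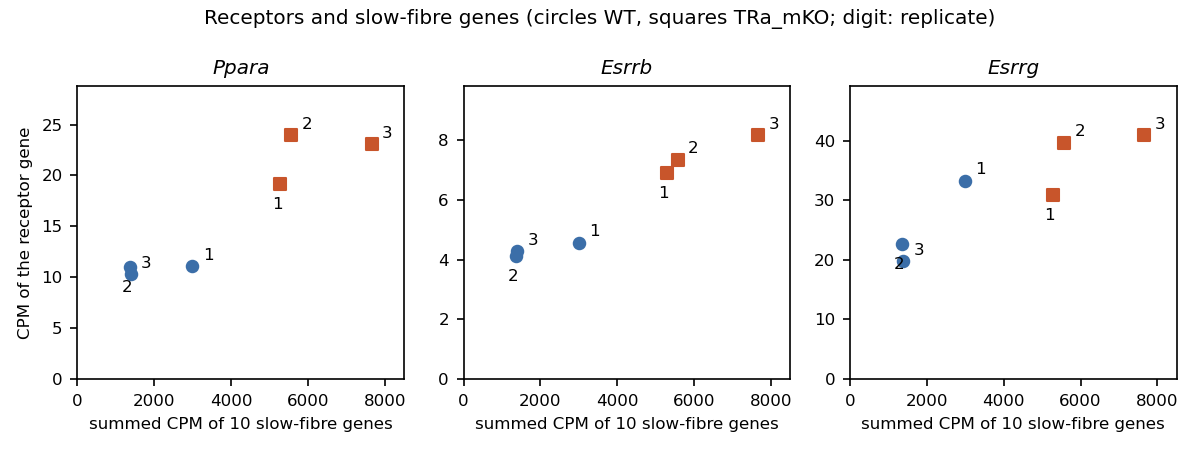
CPM of Ppara, Esrrb and Esrrg against the summed CPM of 10 slow-fibre genes in each library (circles WT, squares TRa_mKO, digits the replicate). WT replicate 1 has the highest slow-fibre sum of WT, 2990 CPM, below the lowest TRa_mKO sum of 5282 CPM, and its Esrrg, 33.3 CPM, lies above TRa_mKO replicate 1 at 30.9 CPM.

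Among the sensors of sterols and foreign compounds, the gene of the oxysterol receptor LXR alpha fell and that of LXR beta had no call. Nr1h3 (gene ID 22259), which encodes LXR alpha, stood at 17.5, 17.0 and 18.9 CPM in the WT mice, against 9.23, 10.7 and 10.2 CPM in the TRa_mKO mice. The groups were well apart, with WT 1.78-fold higher (log2 fold change -0.83, SE 0.11, interval -1.08 to -0.58, adjusted p = 0.0032). Nr1h2, which encodes the widely expressed LXR beta, measured 37.5 ± 2.49 CPM in the WT mice, against 38.0 ± 2.35 CPM in the TRa_mKO mice (log2 fold change 0.02, interval -0.18 to 0.21). The log2 ratio of Nr1h3 to Nr1h2 was -0.99, -1.21 and -1.02 in WT and -1.99, -1.92 and -1.84 in TRa_mKO, with no overlap (exact permutation p = 0.1, the smallest possible, adjusted p = 0.2). In the RefSeq table the span of Nr1h3 overlaps that of Acp2, a lysosomal phosphatase gene, which measured 44.4 CPM in the WT mice, against 41.9 CPM in the TRa_mKO mice (adjusted p = 0.726). LXR alpha is also abundant in macrophages and fat. The 8 macrophage markers, none at 0, summed to between 82.7 and 107 CPM in the WT mice, and between 67.0 and 103 CPM in the TRa_mKO mice, and the 8 adipocyte markers, none at 0, to between 630 and 874 CPM and between 524 and 719 CPM. Their ranges overlapped between genotypes, and none of the tested markers of either list passed. The adipocyte sum was mostly Fabp4 (796, 671 and 555 CPM in the WT mice). Lep, an untested adipocyte marker, was lower in every TRa_mKO library (0.815 ± 0.114 CPM in WT, 0.371 ± 0.0675 in TRa_mKO), and so was the macrophage marker Lyz2 (38.4 ± 2.6 CPM in WT, 29.3 ± 7.09 in TRa_mKO, adjusted p = 0.252, shared reads). The part of these cells in the Nr1h3 values was not tested. The farnesoid X receptor gene Nr1h4 and the constitutive androstane receptor gene Nr1i3, receptors of liver and gut, had mean counts of 1.5 and 3.62.

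Vdr (gene ID 22337), the receptor for active vitamin D, was near the limit of detection in WT. The WT mice gave 1, 2 and 1 counts and the TRa_mKO mice 11, 7 and 17, or 0.0748, 0.155 and 0.066 CPM against 0.806, 0.565 and 1.18 CPM. The summed counts of 4 and 35 gave a ratio of 8.95 per effective library size, with a 95% exact interval of 3.2 to 34.7 that covers counting error only. Its place among the 24 genes comes from the TRa_mKO libraries, since the mean count passed the threshold through them. With no filter on low counts, edgeR called it (log2 fold change 3.03, SE 0.63, adjusted p = 0.0132). The gene entered the set through its higher group, so this call and the ratio with its interval are a description and add no support. Leaving out WT replicate 1, 2 or 3 or TRa_mKO replicate 2 also brought Vdr into the test, through the TRa_mKO counts alone. Those values (adjusted p = 0.0722, 0.0422, 0.0792 and 0.0407) are likewise given as a description and add no support. The retinoic acid receptor genes, which read the acid form of vitamin A, showed no call. Rara measured 15.9 ± 1.01 CPM in the WT mice, against 14.7 ± 2.05 CPM in the TRa_mKO mice, Rarb 16.1 ± 2.63 and 16 ± 1.33, and Rarg 27.3 ± 4.65 and 24.9 ± 5.46. All 3 overlapped between the genotypes, with adjusted p of 0.695, 0.981 and 0.759.

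No steroid receptor gene passed, and the libraries of the genotypes overlapped for each. Nr3c1 (gene ID 14815), the glucocorticoid receptor, had the highest CPM of the set, at 143, 167 and 177 CPM in the WT mice, against 154, 139 and 143 CPM in the TRa_mKO mice. The log2 fold change was -0.16 with an interval of -0.39 to 0.07 (adjusted p = 0.462). Per length it came second to Esrra, at 25.2 RPKM against 27.2 RPKM in WT, before Nr1h2 at 18.8 RPKM. Nr3c2, the mineralocorticoid receptor, measured 16.1 ± 3.51 CPM in the WT mice, against 15.2 ± 1.05 CPM in the TRa_mKO mice, and Esr1, estrogen receptor alpha, 34.7 ± 4.84 and 31.3 ± 3.88 CPM (adjusted p = 0.816 and 0.58). Esr2 and Pgr, the genes of estrogen receptor beta and the progesterone receptor, had mean counts of 2.33 and 0.5.

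The testicular receptors and COUP factors are orphans that often repress by competing for the elements of other receptors. Nr2f2, COUP-TFII, a factor of venous endothelium and mesenchyme, measured 44.4, 43.6 and 44.0 CPM in the WT mice, against 37.8, 39.5 and 40.3 CPM in the TRa_mKO mice. The WT libraries were close together and above all TRa_mKO libraries, but the change was small and did not pass (log2 fold change -0.17, interval -0.33 to -0.00, adjusted p = 0.277). Endothelial markers (8 genes, none at 0) moved with it, summing to between 1243 and 1527 CPM in the WT mice, and between 915 and 1227 CPM in the TRa_mKO mice. Of the 8, 1 was called lower, Flt1, against 1.65% of all genes. The part of endothelial cells in the Nr2f2 values was not tested. Nr2f6, COUP-TFIII, measured 18.9, 18.9 and 20.5 CPM in the WT mice, against 21.2, 21.5 and 21.4 CPM in the TRa_mKO mice, a difference without overlap that did not pass (log2 fold change 0.14, interval -0.06 to 0.34, adjusted p = 0.462). Nr2f1, COUP-TFI, was low, at 1.58 ± 0.751 and 1.10 ± 0.257 CPM, and its interval was wide (-1.37 to 0.32). Nr2c1 measured 13.3 ± 0.949 CPM in the WT mice, against 14.4 ± 0.949 CPM in the TRa_mKO mice (adjusted p = 0.676). Nr2c2, whose fractional counts show that it shares reads with other features, measured 17.1 ± 5.36 and 17.6 ± 2.97 CPM (adjusted p = 0.96).

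The NR4A genes are immediate-early orphans that respond to contraction and adrenergic signals in muscle. Of this family the list of symbols held Nr4a2 and Nr4a3 but not Nr4a1, so the family is described in part. Nr4a3 (gene ID 18124) stood at 5.39, 3.10 and 2.77 CPM in the WT mice, against 1.46, 1.29 and 1.94 CPM in the TRa_mKO mice, with WT replicate 1 well above the other WT libraries. All TRa_mKO libraries were below all WT libraries. Its log2 fold change of -1.24 (SE 0.31, interval -1.94 to -0.55) was larger in size than those of the 4 receptor genes that passed, but the adjusted p of 0.0565 did not pass. DESeq2 called it (adjusted p = 0.0184), as did edgeR with no filter on low counts (0.0301), while limma-voom gave 0.0899. These 2 were the only calls of Nr4a3 in the 14 alternatives. Without WT replicate 1 its log2 fold change shrank to -0.90 (adjusted p = 0.157 in edgeR). Nr4a2 measured 4.72, 3.56 and 4.29 CPM in the WT mice, against 3.22, 4.84 and 4.50 CPM in the TRa_mKO mice, and the log2 fold change of -0.00 had an interval of -0.47 to 0.46. The log2 ratio of Nr4a3 to Nr4a2 was 1.21 lower in TRa_mKO with no overlap (exact permutation p = 0.1, the smallest possible, adjusted p = 0.2).

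Of the remaining orphans, Nr6a1 (gene ID 14536), the germ cell nuclear factor, a repressor known from embryos and germ cells, fell. It measured 11.6, 12.3 and 11.6 CPM in the WT mice, against 8.20, 6.94 and 6.99 CPM in the TRa_mKO mice. The groups did not overlap and WT was 1.60-fold higher (log2 fold change -0.68, SE 0.13, interval -0.96 to -0.40, adjusted p = 0.016). Leaving out replicate 2 or 3 of either genotype ended the call (adjusted p = 0.0513 and 0.053 for WT, 0.0769 and 0.0524 for TRa_mKO), as did leaving out the haemoglobin-rich pair (0.111). Nr5a2, LRH-1, a receptor of liver and gut, was low, at 1.73 ± 0.209 CPM in the WT mice, against 1.45 ± 0.0759 CPM in the TRa_mKO mice (adjusted p = 0.683). Rorb had a mean count of 3.83, and Nr5a1, Nr0b1 and Nr0b2, which are known from steroidogenic tissue or liver, had 0.167, 0.167 and 0.333. Over the 19 tested receptors that did not pass, the 95% interval of 14 lay within 1.5-fold in either direction.

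**Figure D4:**
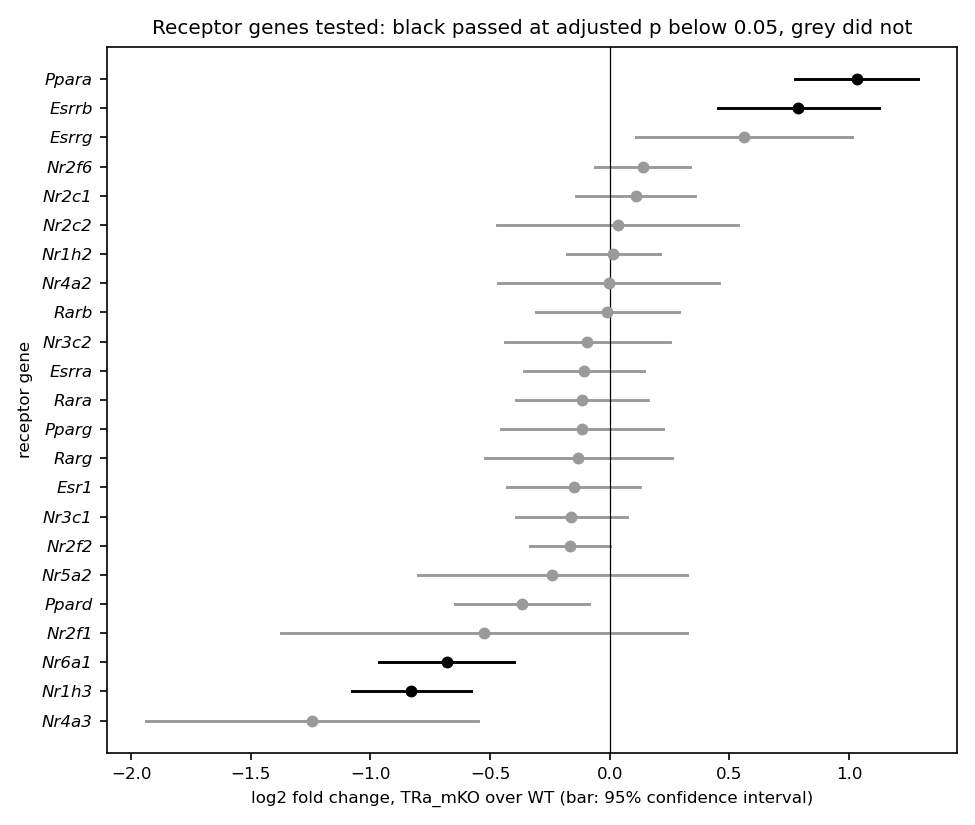
Log2 fold change of TRa_mKO over WT for the 23 receptor genes tested, with bars for 95% confidence intervals and black for an adjusted p below 0.05. Ppara at 1.03 and Esrrb at 0.79 stand at the top and Nr1h3 at -0.83 and Nr6a1 at -0.68 near the bottom, while Nr4a3 at -1.24 has the lowest estimate and did not pass.

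Genes known as targets of these receptors were read from lists. Of 28 tested PPAR targets, 6 rose and 0 fell, with a median log2 fold change of 0.45 against 0 over all genes, and 24 of the 28 had values above 0. Over all genes 2.52% were called higher. Slow-fibre genes rose beside this list, with 5 of 10 called, 10 of 10 at an unadjusted p below 0.05 and a median of 1.71. WT replicate 1, the WT library with the most slow-fibre RNA, also stood apart in the summed PPAR targets, at 6479 CPM against 4815 and 4528 CPM in the other WT libraries and 6840, 7226 and 7923 CPM in the TRa_mKO libraries. The part of slow fibres in the PPAR target values was not tested. Cpt1b, which starts fatty acid import into mitochondria, measured 357, 318 and 288 CPM in the WT mice, against 512, 562 and 539 CPM in the TRa_mKO mice (1.67-fold, adjusted p = 0.00581). Slc25a20, the carnitine carrier, rose 1.52-fold (adjusted p = 0.0145), Hadha, a subunit of the trifunctional protein of beta-oxidation, 1.48-fold (0.0219), and Cpt2 1.37-fold (0.0241). Angptl4, a secreted inhibitor of lipoprotein lipase and a textbook PPAR target, was chosen after its values were seen and measured 3.74, 2.71 and 2.25 CPM in the WT mice, against 5.93, 10.2 and 16.2 CPM in the TRa_mKO mice (3.73-fold, adjusted p = 0.0382). Other targets stayed uncalled: Pdk4, the kinase that shuts off pyruvate oxidation, ranged from 117 to 277 CPM in the WT mice, and from 207 to 525 CPM in the TRa_mKO mice (adjusted p = 0.344), and Plin2, which coats lipid droplets, had a log2 fold change of -0.10. For the lower direction, 1 target had an unadjusted p below 0.05, and DESeq2 and limma-voom called 0. Most members of this list work in fatty acid oxidation and respond to other regulators too. Leaving out WT replicate 1, 2 or 3 gave 14, 2 or 1 calls. Leaving out TRa_mKO replicate 2 or 3 gave 2 or 3, and leaving out the haemoglobin-rich pair gave 10.

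The 28 targets of the estrogen-related receptors, mostly genes of the citric acid cycle and respiratory chain, had a median log2 fold change of 0.01. The single gene called, near the share of all genes called higher (2.52%), was Ldhb, the heart-type lactate dehydrogenase subunit. It rose from 252 ± 76.3 to 483 ± 65.2 CPM (adjusted p = 0.0419). Higher at an unadjusted p below 0.05 were 6 genes of the list, and DESeq2 called 3 higher and limma-voom 1. Over all genes 17.9% had such an unadjusted p in either direction. Of the list 0 fell, with 0 lower at an unadjusted p below 0.05 and 0 lower by DESeq2 or limma-voom. Ldhb did not pass without WT replicate 2 or 3 or TRa_mKO replicate 2 or 3, where the list counted 0, and the list counted 3 without WT replicate 1. Pdk4 and Acadm are on the lists of both families.

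Glucocorticoid receptor targets showed 0 higher and 1 lower of 20, with a median of 0.19, while 1.65% of all genes were called lower and 4.17% in either direction. A lone call of this kind is no result about the list. The gene that fell was Sgk1, a serum- and glucocorticoid-induced kinase, from 404, 400 and 338 CPM in WT to 186, 210 and 296 CPM in the TRa_mKO mice (adjusted p = 0.0439). With 1 library left out the list counted 0, except without TRa_mKO replicate 3. Among its classical neighbours, Fkbp5 measured 28.7, 47.5 and 46.5 CPM in the WT mice, against 27.0, 33.9 and 15.5 CPM in the TRa_mKO mice (adjusted p = 0.333), and Klf15 58.6 ± 14.3 and 91.6 ± 21.9 CPM (0.183). For the higher direction, 1 gene had an unadjusted p below 0.05, DESeq2 called 2 and limma-voom 0.

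On the LXR target list, 1 of 13 tested genes fell (1.65% of all genes did), and it was Nr1h3, which is on its own list. The cholesterol exporter gene Abcg1 measured 9.43, 5.65 and 7 CPM in the WT mice, against 4.17, 4.20 and 4.91 CPM in the TRa_mKO mice, without overlap (log2 fold change -0.73, adjusted p = 0.0847). The related exporter gene Abca1 measured 50.2 ± 2.88 and 53.1 ± 3.53 CPM, and Srebf1, the lipogenic regulator, 62.0 ± 11.1 and 55.6 ± 13.6 CPM, neither with a call. The median over the list, Nr1h3 included, was -0.16, with 4 of 13 values above 0, and the list counted 3 genes without WT replicate 2. No LXR target was called higher, with 1 at an unadjusted p below 0.05 and 0 by DESeq2 or limma-voom. For the lower direction, 3 had an unadjusted p below 0.05, DESeq2 called 2 and limma-voom 1, with Nr1h3 in each of these counts. Of 9 tested retinoic acid receptor targets edgeR called 0, with a median of -0.10, 1 gene at an unadjusted p below 0.05 and 0 by DESeq2 or limma-voom. Rarb, a receptor gene of the set, is on that list as well. Leaving out WT replicate 2 gave 1 call in that list.

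**Figure D5:**
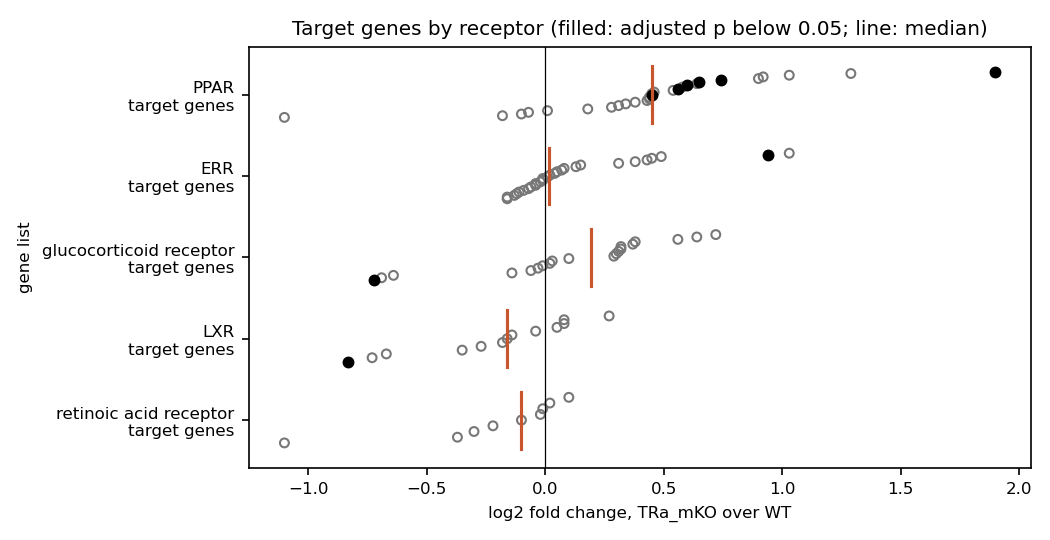
Log2 fold change of TRa_mKO over WT for each tested gene of the target lists of 5 receptor groups, filled where the adjusted p was below 0.05, with a line at the median of each list. PPAR targets centre on 0.45 and targets of the estrogen-related receptors on 0.01.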

How the data were processed

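Polyadenylated RNA of 6 libraries (3 WT, 3 TRa_mKO mice) was analysed. The values are estimated counts, called read counts in the table the authors deposited, and are not normalized. FastQC 0.11.9, MultiQC 1.12, Trimmomatic 0.39 and featureCounts appear in the submitters' processing notes, as do mm10, GRCm38.p6 and GRCm39, without a role. The libraries were stranded, per the labels' protocols; for the aligner, the annotation and the use of strand in counting, names were not given in the sources used here. Between 9.65% and 10% of a library's values were not whole, and values were rounded before testing. Genes passing filterByExpr (minimum count 10) were scaled by TMM and tested with edgeR 4.0.16 (robust quasi-likelihood, two-sided, genotype alone, Benjamini-Hochberg over 13118 genes, R 4.3.3). CPM are on TMM-scaled library sizes. RPKM use the longest GENCODE M21 transcript, and promoters are RefSeq GRCm38.p6. The step was tested on simulated counts for these 13118 genes, where it recovered 50.8% of genes changed 1.5-fold and 80.4% of those changed 2-fold, with 9.22% of calls false. Alternatives used DESeq2 1.42.0, limma 3.58.1 (voom), other scalings, filters and left-out libraries. The series design gives 3 mice per genotype. The receptor genes and lists were chosen with earlier results of these data known, the text names every receptor gene and of each list at most 4 called genes by smallest p, and further list genes, Angptl4 among them, were picked after their values were seen.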

Additional observations from a re-analysis of the deposited data

How the results depend on the processing

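Ppara (log2 fold change of 0.96 or more) and Nr1h3 (-0.89 to -0.77) passed in all 14 alternatives run. Esrrb passed in 8 and Nr6a1 in 9. At this depth about 50.8% of simulated 1.5-fold changes were found, and Vdr, Nr2f1 and Nr5a2 are limited by low counts.

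The genes called were 547, 357 with the replicate number as a block and 267 without both haemoglobin-rich libraries (WT replicate 1 and TRa_mKO replicate 3); the higher ones were 331, 213 with library size only, 216 with the block and 177 without that pair, and the lower ones 216, 141 with the block and 90 without that pair. The ranges on leaving out single libraries were 209 to 595, 135 to 331 and 74 to 264. Deviations of same-numbered libraries had correlations of -0.182, 0.0178 and -0.0566, and the highest value among unlike numbers was 0.239. With 3 libraries per genotype, these values cannot decide whether the numbers pair the samples. Receptor genes higher numbered 1 with the replicate block, where Esrrb gave an adjusted p of 0.0531, and receptor genes lower numbered 1 without the haemoglobin-rich pair. On leaving out single libraries the receptor genes numbered 2 to 5, 1 to 3 higher and 1 to 2 lower.

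PPAR targets counted 3 with library size only, 15 with DESeq2, 3 with the block and 10 without the haemoglobin-rich libraries (1 to 14 with 1 library left out). Targets of the estrogen-related receptors counted 0, 3, 0 and 2 in the same settings (0 to 3). Glucocorticoid receptor targets counted 3 and LXR targets 2 with DESeq2 (0 to 1 and 1 to 3). Without the haemoglobin-rich libraries ligand handling genes counted 2 and coregulators 2 (0 to 1 and 1 to 2), while retinoic acid receptor targets ranged from 0 to 1 and the other nuclear receptors from 1 to 2. Slow-fibre genes counted 2 with library size only, 2 with no filter, 9 with DESeq2, 10 with limma-voom, 2 with the block and 10 without the haemoglobin-rich libraries (1 to 10). The cause was not tested.

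Log2 fold changes that changed sign were all of uncalled genes. With library size only, which moved the median of all genes by -0.05, Nr1h2 was at -0.03 and Nr2c2 at -0.02. Without the haemoglobin-rich libraries Nr1h2 was at -0.01, Nr2c2 at -0.17 and Nr4a2 at 0.03. With 1 library left out Rarb ran from -0.12 to 0.13, Nr1h2 from -0.05 to 0.05, Nr2c2 from -0.13 to 0.32, Nr3c2 from -0.25 to 0.08 and Nr4a2 from -0.13 to 0.15. The log2 ratio of Nr2f2 to Nr2f1 ran from -0.09 to 0.47 and that of Nr2c2 to Nr2c1 from -0.20 to 0.15.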

Other observations

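Of 18 tested corepressors and coactivators, 1 fell, Hr, a corepressor and classical thyroid hormone target, and 0 rose (2 at an unadjusted p below 0.05, 0 by DESeq2 or limma-voom). Called lower were 1.65% of all genes, and called higher 2.52%. The coactivator gene Ppargc1a, a partner of the PPARs and estrogen-related receptors, measured 43.6 ± 6.94 CPM in the WT mice, against 42.5 ± 7.45 CPM in the TRa_mKO mice. Its relative Ppargc1b measured 39.3, 24.1 and 29.5 CPM in the WT mice, against 49.2, 40.4 and 40.8 CPM in the TRa_mKO mice, without overlap (log2 fold change 0.49, adjusted p = 0.165, shared reads). Among the 8 receptors left out of the set, 1 fell, Thrb (28 ± 2.7 to 14.7 ± 0.659 CPM, adjusted p = 0.00125, shared reads), beside the 1.65% of all genes. In that list 0 rose (2 at an unadjusted p below 0.05, 0 by DESeq2 or limma-voom). The retinoid X receptor genes Rxra and Rxrg, whose products pair with the PPARs, LXRs and Vdr, measured 125 ± 14 and 115 ± 12.7 CPM, and 62.5 ± 4.51 and 53.1 ± 19.3 CPM.

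Genes that make, carry or clear receptor ligands gave 0 calls among 13 tested (2 higher and 2 lower at an unadjusted p below 0.05, 0 by DESeq2 or limma-voom), with a median log2 fold change of -0.20. Without WT replicate 1 this list had 1 call and the coregulators 2, and without TRa_mKO replicate 1 the receptors outside the set had 2. Fabp3, the muscle fatty acid carrier, measured 555, 326 and 276 CPM in the WT mice, against 670, 694 and 798 CPM in the TRa_mKO mice (adjusted p = 0.0904, shared reads). Hsd11b1, which regenerates active glucocorticoid, measured 17.1, 20.2 and 19.5 CPM in the WT mice, against 15.5, 14.6 and 15.0 CPM in the TRa_mKO mice, without overlap (adjusted p = 0.113). Cyp27b1, which makes active vitamin D, measured 0.539 ± 0.151 and 0.723 ± 0.21 CPM and was not tested.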
